A study of Mus musculus with 19 samples.

Results

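The 10 immediate early transcription factor genes Fos, Fosb, Jun, Junb, Egr1, Egr2, Nr4a1, Nr4a2, Nr4a3 and Atf3 were followed through RNA-seq counts of mouse endometrium. They were chosen by name as 10 of the 49089 genes in the deposited table, were matched through their Ensembl gene identifiers to GENCODE symbols, and all 10 were found. The table holds 19 libraries from wild-type C57Bl/6 females, each from pooled animals and in 5 column groups. CONT (n = 3) was endometrium of untreated virgin females at estrus, taken late in the evening around ovulation. INT (n = 4) came from females mated with intact Balb/c males and killed at noon on day 3.5 pc (post-coitum), at 8 to 14 weeks of age in the methods. The groups SVX, SVX_VAS and VAS (n = 4 each) came from females killed on the same day, whose Balb/c mates had surgically modified accessory glands or ducts. The labels of these 3 groups name another surgery than the column prefixes do, so the groups are called by their prefixes and no surgery is assigned to them. In every group the endometrium had been scraped off the myometrium, which was discarded. Because estrous tissue was collected in the evening and mated tissue at noon, time of day and reproductive state cannot be told apart in any comparison with CONT.

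The 10 genes fall into 4 groups by role. Fos, Fosb, Jun and Junb encode subunits of AP-1, in which a FOS protein pairs with a JUN protein on DNA. Egr1 and Egr2 encode zinc finger factors that bind GC-rich sites. Nr4a1, Nr4a2 and Nr4a3 encode orphan nuclear receptors, which act without a known hormone ligand and are set by their abundance. Atf3 encodes a stress-induced member of the ATF/CREB family that often represses its targets. On GRCm38, the AP-1 genes are Fos (ENSMUSG00000021250.13, chr12:85473890-85477273, plus strand), Fosb (ENSMUSG00000003545.3, chr7:19302696-19310051, minus), Jun (ENSMUSG00000052684.4, chr4:95049034-95052222, minus) and Junb (ENSMUSG00000052837.6, chr8:84974484-84978718, minus). The zinc finger genes are Egr1 (ENSMUSG00000038418.7, chr18:34859823-34864984, plus) and Egr2 (ENSMUSG00000037868.15, chr10:67535475-67542188, plus). The nuclear receptor genes are Nr4a1 (ENSMUSG00000023034.6, chr15:101266846-101274792, plus), Nr4a2 (ENSMUSG00000026826.13, chr2:57106830-57124003, minus) and Nr4a3 (ENSMUSG00000028341.9, chr4:48045153-48086447, plus), and Atf3 is ENSMUSG00000026628.13 at chr1:191170296-191218039, minus. Exons of 8 of the 10 genes overlap no exon of another gene in the annotation. The other two are Jun, which overlaps Junos, and Junb, which overlaps Prdx2, both on the opposite strand, and the strand setting of the counting is not given in the sources used here, so reads of these pairs may be mixed.

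Immediate early genes are transcribed within minutes of a stimulus to the cell, without new protein synthesis, and their mRNAs are short-lived. Growth factors, estrogen, calcium, mechanical stretch and the stress of handling tissue all induce them, mainly through serum response factor with its ETS partners and through CREB. In the uterus, Fos is a classical early responder to estrogen in the epithelium, and Egr1 has a known role in decidualization of the stroma.

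The promoters of these genes were searched on both strands for the binding letters of such factors, over the 250 bases before the RefSeq start (GRCm38.p6), which were read for 9 of the 10 genes, all but Egr1. The cyclic AMP response element core TGACG, which CREB and ATF factors bind, occurred on either strand in 8 of these 9 windows, all but that of Jun, against 17.8% of 32851 mouse promoter windows of the same length. The 9 windows held 58.4 to 80.0% G and C against a median of 52.4%. The share was therefore also taken over the 10574 windows with 58.4% or more, where it was 26.7%. The full element TGACGTCA, which contains the core, occurred in none of the 9 windows (1.55% of all windows). The EGR site GCGNGGGCG occurred in 3 of the 9 (Fosb, Nr4a1 and Nr4a2), against 4.7% of all windows and 13.1% of those with 58.4% or more G and C. A CArG box, bound by serum response factor, occurred in the Egr2 window only, 72 bases before the start (1.47% of all windows). The AP-1 site TGANTCA, the NR4A site AAAGGTCA and the palindromic estrogen response element occurred in none of the 9 windows (6.75%, 1.34% and 0.0639% of all windows), and the TATA box TATAAA on the gene's own strand only in that of Fos (7.59%). A match is only a description of the letters in this window, and a missing match says nothing of sites outside it. The windows of Fos (chr12:85473640-85473889, plus), Fosb (chr7:19310046-19310295, minus) and Egr2 (chr10:67537619-67537868, plus, the one of 5 listed windows nearest the principal transcript's start) are shown because the Fos and Fosb windows hold different elements and that of Egr2 holds the CArG box, with capitals marking element cores (TGACG, or CGTCA on the other strand), EGR sites and the CArG box.
Fos: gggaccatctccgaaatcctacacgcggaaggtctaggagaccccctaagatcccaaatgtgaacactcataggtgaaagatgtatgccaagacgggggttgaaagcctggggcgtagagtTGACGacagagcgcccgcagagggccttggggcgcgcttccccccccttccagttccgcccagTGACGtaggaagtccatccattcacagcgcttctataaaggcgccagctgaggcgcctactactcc
Fosb: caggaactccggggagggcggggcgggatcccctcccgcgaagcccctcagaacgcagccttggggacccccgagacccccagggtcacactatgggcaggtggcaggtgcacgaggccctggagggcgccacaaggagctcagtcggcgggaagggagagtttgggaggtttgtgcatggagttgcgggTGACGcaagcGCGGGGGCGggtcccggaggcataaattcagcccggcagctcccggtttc
Egr2: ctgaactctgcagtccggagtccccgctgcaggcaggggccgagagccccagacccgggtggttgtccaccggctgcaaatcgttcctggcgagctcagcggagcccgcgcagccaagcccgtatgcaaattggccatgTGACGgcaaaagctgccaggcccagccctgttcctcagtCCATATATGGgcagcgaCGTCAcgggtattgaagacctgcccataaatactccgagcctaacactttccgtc

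The windows of the nuclear receptor genes are shown because each of them held 4 such cores, more than any other of the 9, where Fos and Egr2 held 2 and Fosb, Junb and Atf3 held 1. They are Nr4a1 (chr15:101266596-101266845, plus), Nr4a2 (chr2:57124004-57124253, minus) and Nr4a3 (chr4:48045055-48045304, plus), with the same capitals. The RefSeq start used for Nr4a3 lies 152 bases inside the GENCODE gene, so part of its window falls within that gene. The core 147 bases before this RefSeq start lies in that part.
Nr4a1: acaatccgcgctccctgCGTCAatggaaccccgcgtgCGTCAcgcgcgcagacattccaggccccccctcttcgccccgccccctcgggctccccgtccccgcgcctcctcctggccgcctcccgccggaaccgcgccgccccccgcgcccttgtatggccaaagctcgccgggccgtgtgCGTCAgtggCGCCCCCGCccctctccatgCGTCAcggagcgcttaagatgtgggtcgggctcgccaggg
Nr4a2: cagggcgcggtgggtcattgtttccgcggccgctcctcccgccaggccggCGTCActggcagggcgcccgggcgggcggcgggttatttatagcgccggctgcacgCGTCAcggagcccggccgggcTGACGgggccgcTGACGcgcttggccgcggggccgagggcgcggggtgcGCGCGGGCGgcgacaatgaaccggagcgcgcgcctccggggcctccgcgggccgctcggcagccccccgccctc
Nr4a3: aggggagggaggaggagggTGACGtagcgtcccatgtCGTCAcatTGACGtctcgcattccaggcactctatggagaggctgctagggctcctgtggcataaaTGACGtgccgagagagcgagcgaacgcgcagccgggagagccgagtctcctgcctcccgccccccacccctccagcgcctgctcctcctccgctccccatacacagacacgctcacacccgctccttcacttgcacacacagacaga

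The libraries held 12661266 to 31781270 counted reads each. Levels are given as CPM, a gene's count scaled to a common library total after TMM, a factor that aligns most genes between libraries. A gene was called different at a false discovery rate (FDR, edgeR's quasi-likelihood test with Benjamini-Hochberg adjustment over 17222 genes) of 0.05 or less together with a log2 fold change (logFC) of at least 0.58 in size. VAS replicates 2 and 3 stood apart from the other 17 libraries: their 100 most abundant genes took 5.92 to 5.93% of counts against 12.1 to 14.1%, and the nuclear RNA Malat1 stood at 544 CPM in each against 8217 CPM or more. The differences of VAS from CONT are therefore given with and without them. Markers of epithelium, stroma, endothelium and smooth muscle were present in CONT and INT in differing proportion. The summed level of 8 epithelial markers was 4132 to 5531 CPM in CONT and 766 to 2710 in INT, that of 8 stromal markers 6269 to 6769 and 8127 to 10840, that of 8 endothelial markers 242 to 344 and 813 to 1235, and that of 8 smooth muscle markers 481 to 962 and 987 to 1745. In bulk tissue, fewer cells of a type and less RNA per cell cannot be told apart, and the part of these shifts in the results below was not tested.

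Between estrus and day 3.5 pc after intact mating, the 10 factors did not move as one. Fos and Junb fell, while Fosb, Egr1, Egr2, Nr4a1 and Nr4a3 rose, and Jun, Nr4a2 and Atf3 did not pass both cutoffs. Thus 5 of the 10 were called higher and 2 lower, where 20.9% of all genes tested were called higher and 12.7% lower. Only genes at 3 CPM in 3 or more libraries, before TMM scaling, were tested. Fosb, Egr2, Nr4a3 and Atf3 reached that level in no estrous library and were tested because of the mated ones, so the counts and the median are a description. Without this filter Fosb and Nr4a3 were still called higher (edgeR FDR = 0.00609 and 0.0277) and Egr2 was not (FDR = 0.0744). For 7 of the 10 no INT library lay within the CONT range, 5 of them higher (31% of all genes) and 2 lower (31.3%). The median logFC of the 10 was 0.87, beside -0.01 over all genes tested. Without INT replicate 3 the logFCs of Fosb, Egr1, Egr2, Nr4a1 and Nr4a2 were smaller, as given below, and the median was not taken again.

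Fos, the founding FOS subunit of AP-1, stood at 77.8, 62.2 and 74.3 CPM in CONT replicates 1, 2 and 4. In INT replicates 1 to 4 it was 48.3, 33.9, 32.5 and 15.7 CPM. All 4 mated libraries lay below all estrous ones, and INT replicate 4 was the lowest. The mean fell from 71.4 ± 8.17 (SD, n = 3) to 32.6 ± 13.3 CPM (SD, n = 4), a logFC of -1.13 ± 0.36 (SE, edgeR FDR = 0.0166). Without CONT replicate 1 the logFC was -1.06 and the FDR 0.0531.

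Fosb, a second FOS subunit, moved the other way. It was at 0.769, 1.39 and 1.13 CPM in CONT, from 13 to 39 reads a library, and at 2.26, 2.13, 8.39 and 3.75 CPM in INT. The groups did not overlap, although INT replicate 3 alone stood well above the other mated libraries. The mean rose from 1.10 ± 0.313 to 4.13 ± 2.93 CPM, a logFC of 1.90 ± 0.48 (SE, edgeR FDR = 0.00378). The logFC was 1.26 (FDR = 0.0174) without INT replicate 3, and limma-voom gave an FDR of 0.0655, which ends the call.

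The JUN subunits differed from each other. Junb, a weaker activator than Jun, stood at 86.0, 78.6 and 74.6 CPM in CONT and at 54.5, 50.0, 63.9 and 40.6 CPM in INT, with no overlap. Its logFC of -0.61 ± 0.22 (SE, edgeR FDR = 0.0284) was close to the cutoff. The call was lost without CONT replicate 1 (-0.55, FDR = 0.0933), CONT replicate 2 (FDR = 0.0570), INT replicate 2 (FDR = 0.0572) or INT replicate 4 (-0.50, FDR = 0.0873), and with upper quartile scaling (-0.48, FDR = 0.0613). Jun, the main JUN subunit, read 78.7, 126 and 104 CPM in CONT and 79.4, 75.4, 84.8 and 90.9 CPM in INT. Its groups overlapped because CONT replicate 1 lay among the mated libraries, and its logFC of -0.31 ± 0.14 (edgeR FDR = 0.0807) had a 95% interval of -0.62 to -0.01. It was -0.47 (FDR = 0.0117), still under the cutoff in size, without CONT replicate 1, -0.14 (FDR = 0.462) without CONT replicate 2 and -0.18 (FDR = 0.309) with upper quartile scaling. Of the overlapping partners, Junos had a logFC of -0.76 (FDR = 0.00138) and Prdx2 of -0.32 (FDR = 0.430).

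Egr1 rose about as much as Fosb. It was at 11.4, 16.1 and 17.8 CPM in CONT and at 37.6, 22.0, 89.5 and 31.8 CPM in INT, where again replicate 3 was the highest. No mated library reached down to the estrous range, and the logFC was 1.59 ± 0.43 (SE, edgeR FDR = 0.00651), or 0.98 (FDR = 0.0322) without replicate 3. Egr2, its relative known from myelination and T cell tolerance, was much less even. It read 1.83, 2.46 and 1.73 CPM in CONT, from 23 to 69 reads, and 2.56, 2.38, 10.3 and 2.23 CPM in INT, so that replicates 2 and 4 lay within the estrous range and replicate 3 stood far above the rest. Its logFC of 1.11 ± 0.43 (SE, edgeR FDR = 0.0431) went to 0.21 (FDR = 0.585) without INT replicate 3, and the call was also lost without CONT replicate 1 (1.05, FDR = 0.121), 2 (1.29, FDR = 0.0556) or 4 (1.02, FDR = 0.121), with limma-voom (0.80, FDR = 0.154), with the weaker filters on low counts (FDR = 0.0546 to 0.0744) and with CONT and INT alone in the fit (FDR = 0.154).

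Among the nuclear receptors, Nr4a1 was at 4.73, 5.03 and 6.18 CPM in CONT and at 10.1, 9.02, 33.4 and 10.8 CPM in INT. All mated libraries were higher than all estrous ones, and the logFC was 1.58 ± 0.42 (SE, edgeR FDR = 0.00546), or 0.88 (FDR = 0.0200) without replicate 3. Nr4a3 was at 1.01, 1.68 and 1.81 CPM in CONT, from 17 to 47 reads, and at 5.19, 2.38, 4.76 and 6.05 CPM in INT. Here replicate 2, not replicate 3, stood apart, as the lowest of the mated libraries. The logFC was 1.61 ± 0.52 (SE, edgeR FDR = 0.0177), and the call was lost without CONT replicate 1 (1.40, FDR = 0.0796) and with limma-voom (FDR = 0.249). Nr4a2, known best from dopamine neurons, read 4.97, 5.89 and 5.96 CPM in CONT and 6.69, 6.89, 10.3 and 8.97 CPM in INT. Its groups did not overlap, but its logFC of 0.55 ± 0.19 (edgeR FDR = 0.0217) was under the cutoff. It passed that cutoff without CONT replicate 2 (0.59) or 4 (0.60), without INT replicate 1 (0.64) or 2 (0.63), and with upper quartile scaling (0.68, FDR = 0.00966). It missed the FDR threshold too without CONT replicate 1 (0.47, FDR = 0.0945), INT replicate 3 (0.39, FDR = 0.109) or INT replicate 4 (0.51, FDR = 0.0555), and without a filter on low counts (FDR = 0.0582).

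Atf3 was at 1.95, 2.71 and 3.09 CPM in CONT, from 33 to 76 reads, and at 4.13, 2.25, 4.42 and 5.15 CPM in INT. INT replicate 2 lay within the estrous range, so the groups overlapped. The logFC of 0.63 ± 0.39 (edgeR FDR = 0.205) had a 95% interval of -0.21 to 1.46.

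**Figure D1:**
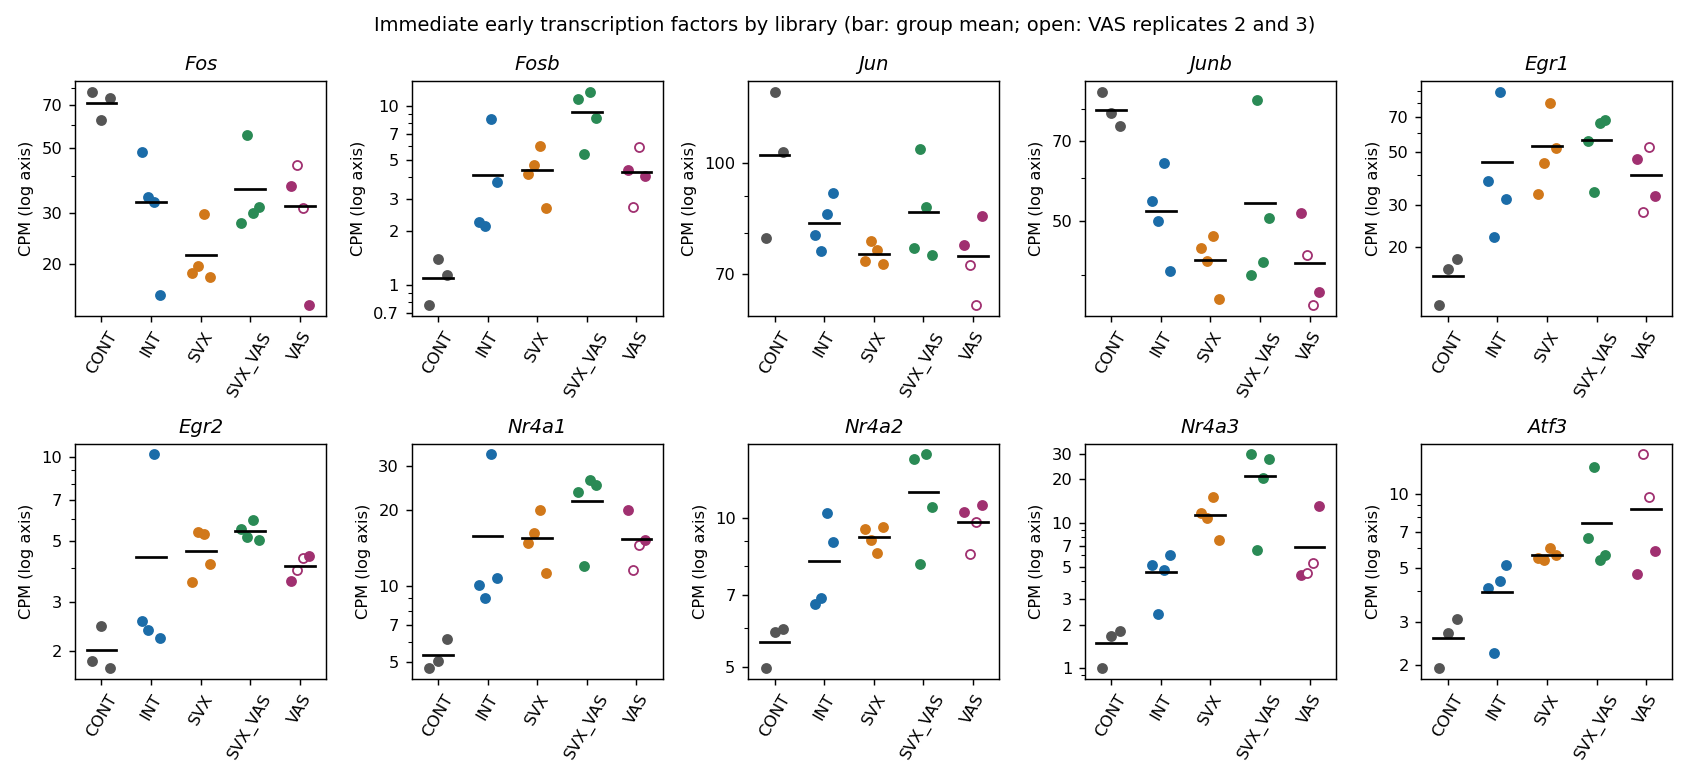
Level of each of the 10 immediate early factors in the 19 libraries (log axis, CPM), with 1 point per library, bars at the group means and open points for VAS replicates 2 and 3. Fos lies between 62.2 and 77.8 CPM in CONT and at 55.2 CPM or less in every mated library, while Egr1, Nr4a1 and Nr4a3 are lower in CONT than in any mated library.

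The 3 groups mated with surgically modified males were set against the same CONT libraries, so the 4 comparisons with estrus are not independent of each other. Here too Fosb, Egr2, Nr4a3 and Atf3 were tested only because mated libraries passed the filter, so the counts and medians below are a description. In SVX, 7 of the 10 factors were called higher and 2 lower, against 23.1% and 18.5% of all genes. In SVX_VAS, 7 were called higher and 1 lower, against 22.2% and 16.5%. In VAS, 6 were called higher and 2 lower, against 23.3% and 17.3%, or 7 and 2 against 28.8% and 12.1% with upper quartile scaling. With limma-voom the VAS call of Nr4a3 was lost (FDR = 0.0957) and no other changed, against 22.6% and 28.2% of all genes. Libraries clear of the CONT range were found for 7 factors upward and 3 downward in SVX (35.1% and 35.8% of all genes), 7 and 1 in SVX_VAS (33.4% and 34.1%) and 7 and 2 in VAS (26.7% and 28.4%). The median logFC of the 10 was 1.15, 1.49 and 1.21 in these comparisons, beside -0.01, -0.02 and -0.07 over all genes. Fosb, Egr1, Nr4a1 and Nr4a3 were called higher and Fos lower in each of the 4 comparisons with CONT. Without VAS replicates 2 and 3, 6 factors were still called higher in VAS and 2 lower, against 23% and 13.2% of all genes. Their logFCs were then 1.94 for Fosb, 1.43 for Egr1, 1.76 for Nr4a1, 0.93 for Nr4a2, 2.56 for Nr4a3, 1.05 for Atf3, -1.44 for Fos and -0.81 for Junb (edgeR FDR = 0.00219 to 0.0284). Jun (-0.32, FDR = 0.126) and Egr2 (FDR = 0.124) were not called.

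Markers of cell types shifted with these comparisons. In each of the 3 groups 7 of 8 epithelial markers were called lower than in CONT and 8 of 8 endothelial ones higher. Against 4132 to 5531 CPM in CONT, the epithelial markers summed to 825 to 1131 CPM in SVX, 980 to 2233 in SVX_VAS and 559 to 2340 in VAS. The endothelial markers summed to 1089 to 1343, 931 to 1299 and 716 to 1316 CPM, against 242 to 344 in CONT. Neutrophil markers, of which 4 of 8 passed the filter on low counts, stood at 27.6, 61.2 and 76.8 CPM in VAS replicates 1 to 3, against 15.1 to 17.9 in CONT, where VAS replicate 4 also lay, and 10.2 to 21.0 in SVX and SVX_VAS. Stromal markers were at 2104 and 2274 CPM in VAS replicates 2 and 3, against 6269 CPM or more in every other library. The part of these shifts in the levels of the 10 factors was not tested.

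Fos read 18.6, 19.8, 29.8 and 18.1 CPM in SVX, 27.7, 55.2, 29.9 and 31.4 in SVX_VAS, and 36.9, 43.6, 31.0 and 14.4 in VAS. All 12 of these libraries lay below the lowest estrous one, and SVX_VAS replicate 2 came nearest to it. The logFC was -1.73 in SVX (edgeR FDR = 0.000757), -0.98 in SVX_VAS (FDR = 0.0299) and -1.18 in VAS (FDR = 0.0109). The SVX_VAS call did not hold without CONT replicate 1 (-0.92, FDR = 0.0837) or 4 (-0.95, FDR = 0.0684), without SVX_VAS replicate 1 (-0.87, FDR = 0.0794), 3 (-0.90, FDR = 0.0748) or 4 (-0.92, FDR = 0.0666), or with upper quartile scaling (-0.84, FDR = 0.0558). Without VAS replicates 2 and 3 the VAS logFC was -1.44.

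Junb was called lower in SVX and VAS and not in SVX_VAS. It was at 44.7, 42.3, 47.0 and 36.1 CPM in SVX, at 39.9, 83.1, 42.1 and 50.7 in SVX_VAS, and at 51.8, 43.5, 35.2 and 37.2 in VAS. SVX_VAS replicate 2 alone lay within the estrous range of 74.6 to 86.0 CPM. The logFC was -0.90 in SVX (edgeR FDR = 0.00197) and -0.92 in VAS (FDR = 0.00178), and -0.56 in SVX_VAS, under the cutoff. Without SVX_VAS replicate 2 it was -0.85 there (FDR = 0.000573), and limma-voom (-0.62) and the filter at 1 CPM (-0.61) also passed it. Jun, at 63.3 to 105 CPM in these 12 libraries, had logFCs of -0.46, -0.26 and -0.47, none past the cutoff, and passed it in SVX (-0.62) and VAS (-0.63) without CONT replicate 1. Without CONT replicate 2 the same logFCs were -0.28 (FDR = 0.107) and -0.30 (FDR = 0.0938), and that in SVX_VAS was -0.09 (FDR = 0.641).

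Fosb reached its highest levels in SVX_VAS. It was at 4.18, 4.69, 5.96 and 2.70 CPM in SVX, at 10.9, 5.40, 12.0 and 8.55 in SVX_VAS and at 4.37, 2.73, 5.88 and 4.07 in VAS, all above the highest estrous library at 1.39 CPM. The logFC against CONT was 1.98 in SVX (edgeR FDR = 0.00220), 3.05 ± 0.50 in SVX_VAS (FDR = 0.000105) and 1.94 in VAS (FDR = 0.00261). Per kilobase of exon, Fosb was 0.372 to 0.843% of Fos in CONT, 1.76 to 9.71% in INT, 5.64 to 8.93% in SVX, 3.68 to 15.1% in SVX_VAS and 2.36 to 10.6% in VAS. This ratio, chosen after its values were seen, is taken within a library and does not depend on the scaling between libraries.

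Egr1 was called higher in the 3 surgical groups and Egr2 in SVX and SVX_VAS. Egr1 read 33.4, 44.9, 80.5 and 52.0 CPM in SVX, 55.7, 34.0, 66.3 and 68.2 in SVX_VAS and 46.8, 28.1, 52.6 and 32.5 in VAS. Every one of these libraries lay above the estrous maximum of 17.8 CPM, and the logFC was 1.81, 1.90 and 1.41 (edgeR FDR = 0.00216, 0.00177 and 0.0107), with the VAS call lost without CONT replicate 1 (1.24, FDR = 0.0524). Egr2 was more even here than in INT, at 3.56 to 5.39 CPM in SVX, 5.04 to 5.96 in SVX_VAS and 3.59 to 4.42 in VAS, with no overlap with estrus. Its logFC was 1.18 in SVX (edgeR FDR = 0.0278) and 1.42 in SVX_VAS (FDR = 0.0113). In VAS it was 1.01, and the FDR of 0.0555 missed the threshold, while that of DESeq2 (0.0417) and of upper quartile scaling (0.0273) passed it. Of 17 alternatives run for Egr2 in VAS, 14 left it uncalled. The SVX call was lost without CONT replicate 1 (1.12, FDR = 0.0846) or 4 (1.09, FDR = 0.0860) and without SVX replicate 2 (1.10, FDR = 0.0599) or 3 (1.11, FDR = 0.0585), and without a filter on low counts (FDR = 0.0507).

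Nr4a1 was at 14.8, 16.3, 20.0 and 11.2 CPM in SVX, at 23.7, 12.0, 26.4 and 25.2 in SVX_VAS and at 20.0, 11.6, 14.6 and 15.2 in VAS. All were above the estrous maximum of 6.18 CPM, with logFCs of 1.56, 2.04 and 1.53 (edgeR FDR = 0.00465, 0.000810 and 0.00529). Nr4a2, at 8.10 to 13.5 CPM, was called higher in all 3 groups, with logFCs of 0.71, 1.02 and 0.81 (edgeR FDR = 0.00376, 0.000291 and 0.00158). Nr4a3 varied most. It was at 11.7, 10.8, 15.0 and 7.68 CPM in SVX, at 29.7, 6.56, 20.4 and 27.8 in SVX_VAS and at 4.37, 4.54, 5.27 and 13.2 in VAS. Against CONT its logFC was 2.91 ± 0.54 in SVX (edgeR FDR = 0.000263), 3.81 ± 0.56 in SVX_VAS (FDR = 4.54e-05), a 14.0-fold difference, and 2.18 in VAS (FDR = 0.00232, or 0.0957 with limma-voom).

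Atf3 was called higher in the 3 surgical groups, and its differences from INT are given below. It was at 5.49, 5.39, 6.03 and 5.62 CPM in SVX, at 6.57, 12.9, 5.37 and 5.63 in SVX_VAS and at 4.71, 14.4, 9.71 and 5.82 in VAS, each above the estrous maximum of 3.09 CPM. The logFC was 1.12 in SVX (edgeR FDR = 0.0230), 1.56 in SVX_VAS (FDR = 0.00370) and 1.75 in VAS (FDR = 0.00160). The SVX call was lost without CONT replicate 1 (0.96, FDR = 0.0959) or 2 (1.16, FDR = 0.0518) and with limma-voom (FDR = 0.0677). The highest VAS libraries for Atf3 were replicates 2 and 3, the pair that stood apart in their composition, and without them the VAS logFC was 1.05 (FDR = 0.0284).

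**Figure D2:**
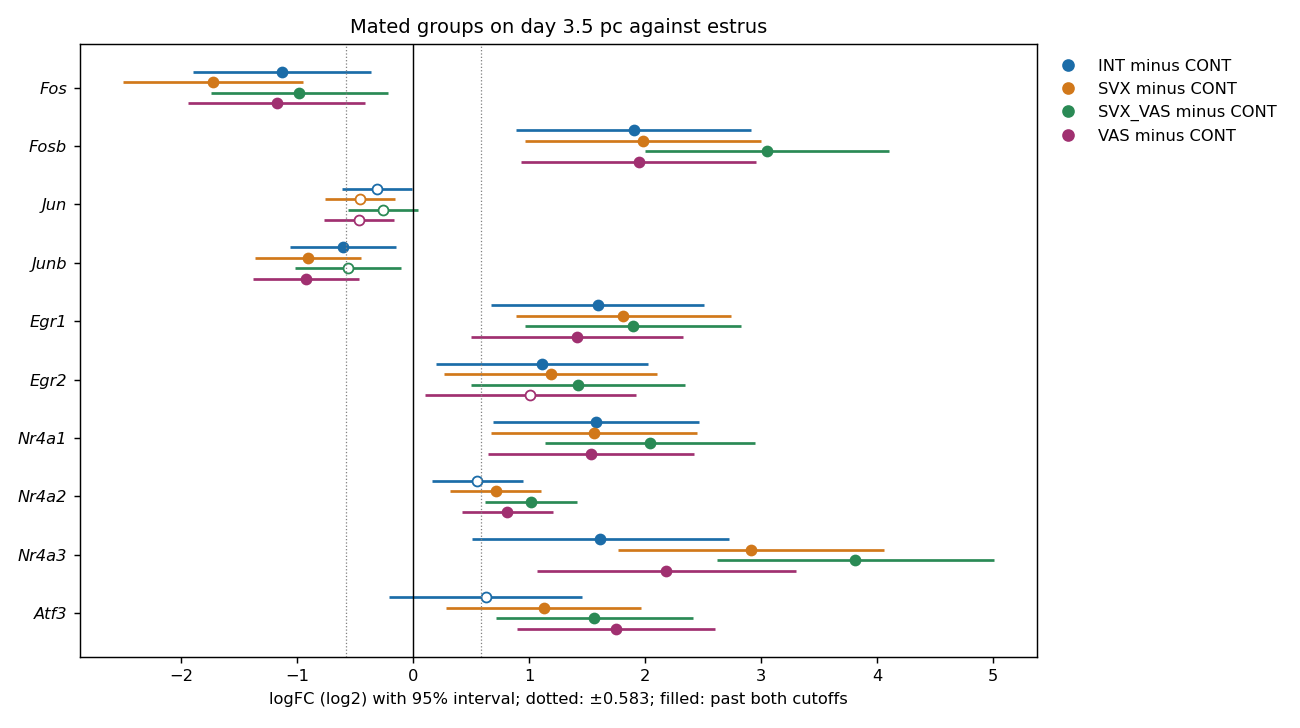
Log2 fold change of each factor in the 4 mated groups against the same 3 estrous libraries, with 95% intervals from edgeR; filled points passed both cutoffs and dotted lines mark the cutoff of 0.58 in size. Fos, Jun and Junb lie left of 0 and the other 7 right of it in each group, with Nr4a3 in SVX_VAS farthest out at 3.81.

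The make-up of the pool of these transcripts differed too. On the scale of CPM per kilobase of exon, which allows genes to be compared, the order in CONT was Junb (34.7 ± 2.51), Jun (32.2 ± 7.38) and Fos (30.4 ± 3.47), whose ranges over libraries overlapped although Junb was above Fos within each library, followed at a distance by Egr1 (3.36), Nr4a1 (2.15), Nr4a2 (1.38), Atf3 (1.20), Egr2 (0.592), Nr4a3 (0.250) and Fosb (0.176). In INT the order was Jun (25.9), Junb (22.7), Fos (13.9 ± 5.66), Egr1 (10.1 ± 6.73), Nr4a1 (6.39 ± 4.74), Nr4a2 (2.02), Atf3 (1.85), Egr2 (1.28), Nr4a3 (0.767) and Fosb (0.662). The ranges of Fos, Egr1 and Nr4a1 overlapped there, but within each of the 4 libraries both Fos and Egr1 were above Nr4a1, and Fos was above Egr1 in replicates 1 and 2 only. In SVX, Egr1 was at 11.8 ± 4.47 and Fos at 9.16 ± 2.35 (SD, n = 4 each), a difference within the spread between replicates, and in SVX replicate 1 Fos was the higher of the pair.

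Fos, Jun and Junb together made up 92.8, 91.3 and 90.3% of the summed level per kilobase of the 10 genes in the 3 CONT libraries. In INT replicates 1 to 4 the share was 79.3, 82.4, 61.2 and 74.3%. It was 61.2 to 69.6% in SVX, 59.1 to 79.4% in SVX_VAS and 63.6 to 73.1% in VAS, so no mated library reached the estrous range. Egr1 took 2.47 to 3.71% in CONT and 6.77 to 17.9% in INT, and the 3 nuclear receptors together 3.22 to 3.99% and 7.56 to 15.1%. These shares were also chosen after the values were seen and are given as a description.

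**Figure D3:**
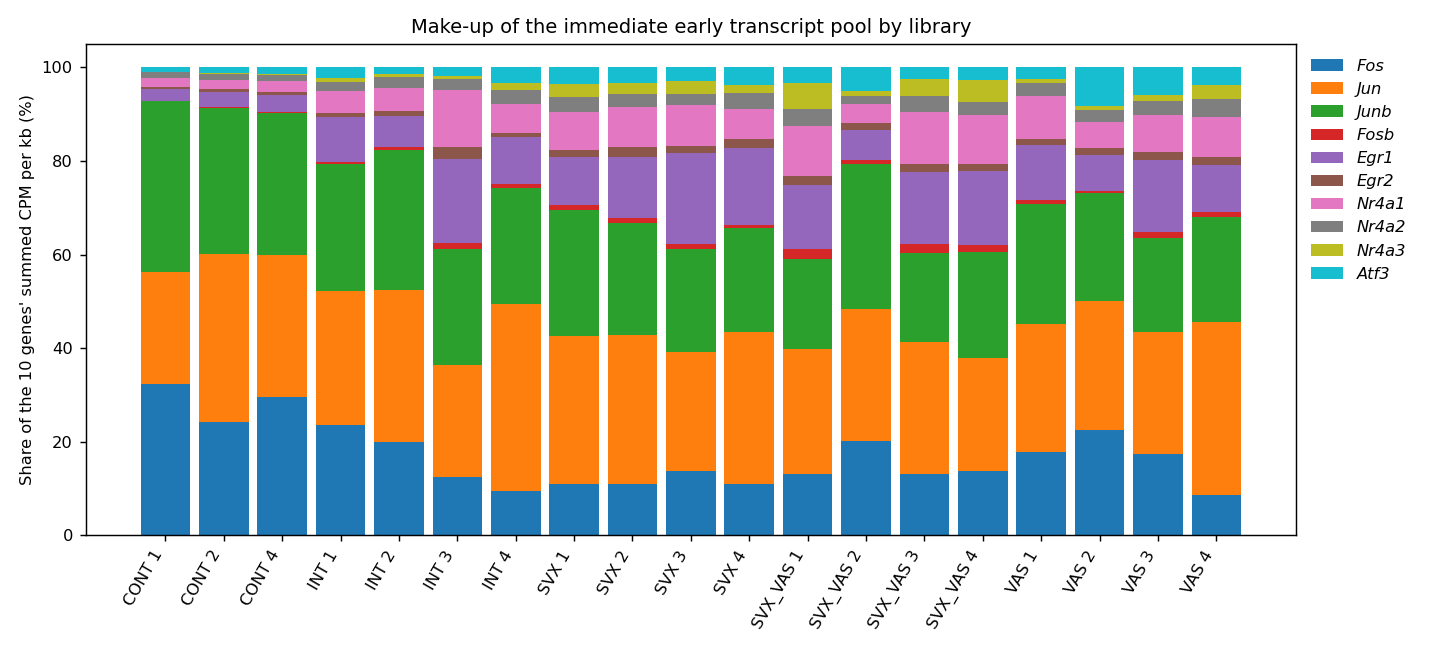
Share of each factor in the summed CPM per kilobase of the 10 genes, 1 bar per library (percent of the sum). Fos, Jun and Junb, the lower 3 segments, fill 90.3 to 92.8% of the bar in CONT and 59.1 to 82.4% in the mated libraries.

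Whether the male partner's surgery went with a difference on day 3.5 pc was asked by setting the 3 surgical groups against INT. The same 4 INT libraries serve all 3 comparisons. With edgeR, 0 of the 10 factors were called in any of them, and 0% of all genes tested were. At an unadjusted p under 0.05 there was 1 factor in SVX (4.35% of all genes), 4 in SVX_VAS (1.97%) and 1 in VAS (10.6%). DESeq2 called 1 factor, Nr4a3 in SVX_VAS, where it called 2 genes in all (0.0116%), and 0 factors in SVX (0.0174% of all genes) or VAS (0%). With limma-voom 0 factors were called in the 3 comparisons, against 0% of all genes in SVX and SVX_VAS and 9.66% in VAS.

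Nr4a3 had the lowest p of the 10 factors among the mated groups. Its mean was 4.59 ± 1.57 CPM in INT, 6.84 ± 4.25 in VAS, 11.3 ± 3.03 in SVX and 21.1 ± 10.5 in SVX_VAS (SD, n = 4 each), and neighbours in this order had overlapping libraries. All SVX libraries (7.68 CPM or more) and all SVX_VAS libraries (6.56 CPM or more) lay above the INT maximum of 6.05 CPM. Nr4a3 and Atf3 were the 2 factors wholly above INT in SVX (1.35% of all genes) and in SVX_VAS (0.941%), and in VAS there were 0 (0.639%). Against INT its logFC was 2.20 ± 0.46 in SVX_VAS (95% interval 1.22 to 3.18), with an unadjusted edgeR p of 0.000206 that did not survive adjustment over all genes (FDR = 1). In SVX it was 1.30 ± 0.45, with an interval of 0.34 to 2.26, and did not pass either. DESeq2 gave a logFC of 2.21 and an FDR of 0.0138 in SVX_VAS.

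A joint test over the 4 mated groups called 0 of the 10 factors with edgeR (0% of all genes), and 3 had an unadjusted p under 0.05 (7.04% of all genes): Nr4a3 (0.000817, FDR = 0.636), Fosb (0.0219) and Atf3 (0.0299). With DESeq2, which called 0.0813% of all genes, the FDR of Nr4a3 was 0.0340, and with limma-voom, which called 8.11%, it was 0.0866. In edgeR it was 0.0312 without VAS replicate 4, the highest VAS library, and 0.953 without VAS replicates 2 and 3. In that last fit Fos, Fosb and Jun had the same adjusted value of 0.953, so it does not set Nr4a3 apart from them. The logFC of Nr4a3 against INT was then 2.205 in SVX_VAS, 1.304 in SVX and 0.930 in VAS. With all libraries these were 2.199, 1.299 and 0.570. Within a library, Nr4a3 per kilobase was 8.78 to 13.8% of Nr4a1 in CONT, 5.89 to 23.2% in INT, 27.3 to 32.7% in SVX, 22.6 to 51.8% in SVX_VAS and 9.03 to 35.8% in VAS. This ratio rests on the same counts as the tests above and is given as a description.

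Of the other factors, Fosb in SVX_VAS had a logFC of 1.15 against INT (95% interval 0.29 to 2.01) and Nr4a2 one of 0.46 (0.11 to 0.82). That of Fosb was 1.78 (FDR = 0.564) without INT replicate 3. Atf3 had logFCs of 0.50 in SVX, 0.93 in SVX_VAS (95% interval 0.18 to 1.69) and 1.12 in VAS (0.37 to 1.88). Without SVX_VAS replicate 2 the value there was 0.56. In VAS it was 0.40 without replicates 2 and 3, and 1.33 (FDR = 0.0454) without replicate 1. For Egr1, Egr2 and Nr4a1 the 95% intervals of the logFC against INT reached from -0.98 to 1.24 over the 3 groups, so differences of that size could not be told from the spread between libraries. In SVX_VAS their logFCs were 0.31, 0.31 and 0.46. With 1 library left out they ranged from 0.08 to 0.90, from 0.09 to 1.20 and from 0.27 to 1.15, and none was called. The 95% intervals of Fos, Jun and Junb against INT reached from -1.32 to 0.86.

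The mated libraries differed widely in Ltf, and the 10 factors were set against it, with no relation that passed adjustment. Ltf, the gene of the epithelial secretory protein lactoferrin and a classical estrogen target, was at 1866 to 2832 CPM in CONT, at 2143, 639, 27.2 and 45.0 in INT replicates 1 to 4, and at 2286 in SVX_VAS replicate 2 against 16.6 to 193 in the others of that group. INT replicate 1 was the highest INT library for Fos, and SVX_VAS replicate 2 the highest of its group for Fos, Junb, Jun and Atf3 and the lowest for Egr1, Nr4a1, Nr4a2, Nr4a3 and Fosb. Over the 16 mated libraries, log2 CPM of Fos correlated with that of Ltf at r = 0.65 (rho = 0.65, permutation p = 0.00758 and 0.00719), Junb at r = 0.59 (rho = 0.59, permutation p = 0.0137 and 0.0177) and Nr4a2 at r = -0.62 (rho = -0.52, permutation p = 0.00934 and 0.0395). Adjusted over the 20 relations tested, 10 with Ltf and 10 with Myh11, these p-values were 0.0917 for r and 0.130 to 0.132 for rho, so none passed.

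Without the pair of libraries farthest from the median of Ltf, INT replicate 1 and SVX_VAS replicate 2, r was 0.42 for Fos, 0.30 for Junb and -0.45 for Nr4a2, so much of each relation rests on these libraries. Relative to the mean of each library's own group, r was 0.63, 0.64 and -0.80. Egr1 had r = -0.53 (permutation p = 0.0347, adjusted 0.174) and Nr4a3 r = -0.51 (permutation p = 0.0444, adjusted 0.178). Egr2 had rho = -0.57 (permutation p = 0.0239, adjusted 0.130) and r = -0.47. Without the same pair, r was -0.53 for Egr1, -0.52 for Nr4a3 and -0.53 for Egr2. None of the 10 factors had a relation with Myh11, the myosin heavy chain of smooth muscle, at an unadjusted permutation p under 0.05. The smallest was 0.0953, for Nr4a1 (r = -0.43). In INT replicates 1 to 4 the summed level of the 8 epithelial markers was 2710, 2228, 766 and 1100 CPM, and that of Epcam, an epithelial adhesion protein, 357, 268, 84.5 and 92.6 CPM. The part of the epithelium in the relations above was not tested.

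**Figure D4:**
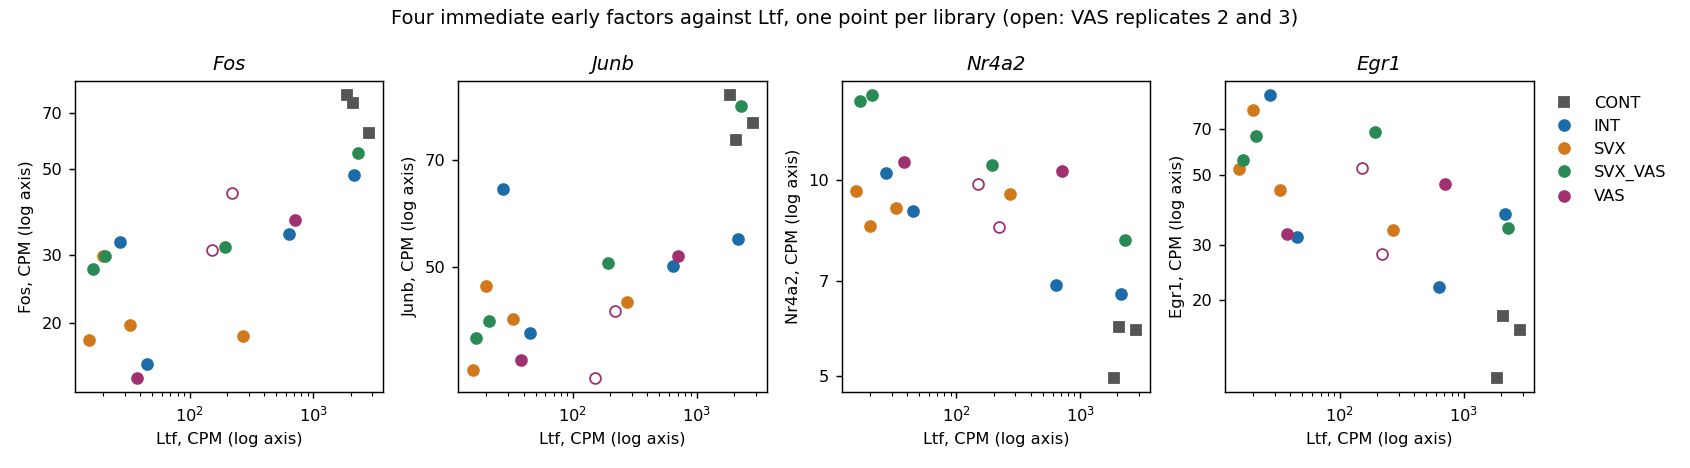
Fos, Junb, Nr4a2 and Egr1 against Ltf, each in CPM on log axes, with 1 point per library, squares for CONT and open points for VAS replicates 2 and 3. INT replicate 1 and SVX_VAS replicate 2, at 2143 and 2286 CPM of Ltf, lie nearest to the CONT libraries.

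The relatives of the 10 factors and the pathways upstream of them were then counted in INT against CONT, where 20.9% of all genes tested were called higher and 12.7% lower, the shares beside which every list below stands. Of 12 listed AP-1 and EGR relatives, 10 were tested, with 3 called higher, 3 lower and a median logFC of -0.47. The higher ones were Batf3 (1.86), Batf (1.51) and Crem (0.74), and the lower ones included Jdp2 (-1.23) and Fosl2 (-1.14), the latter a FOS relative that fell together with Fos. Egr3 and Egr4 did not pass the filter on low counts. Of 34 other immediate early and early response genes, 9 were called higher and 7 lower, with a median of -0.05. The called genes farthest out were Arc (3.24), Ccn2 (2.61) and Dusp2 (2.25), and Gadd45b (-1.74), Klf4 (-1.71) and Ccn1 (-1.39). Ccn1 and Ccn2, both matricellular genes induced by serum, went in opposite directions.

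Of 19 genes for the kinases and factors that act upstream, and for the NAB corepressors of EGR proteins, 1 was called higher and 4 lower, with a median of -0.11. The higher one was Nab2 (0.87), a corepressor that EGR1 induces. The lower ones were the kinases Rps6ka1 (-1.19), Map2k1 (-1.11) and Rps6ka3 (-0.86) and the ETS factor Elk3 (-0.88). Handling stress was read from 10 heat shock and stress genes, of which 0 were called higher and 3 lower, namely Hspa1b (-1.95), Hspb1 (-0.97) and Hmox1 (-0.78), with a median of -0.34. Their summed level was 1396 to 1763 CPM in CONT and 1074 to 1583 in INT, and their part in the levels of the 10 factors was not tested.

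**Figure D5:**
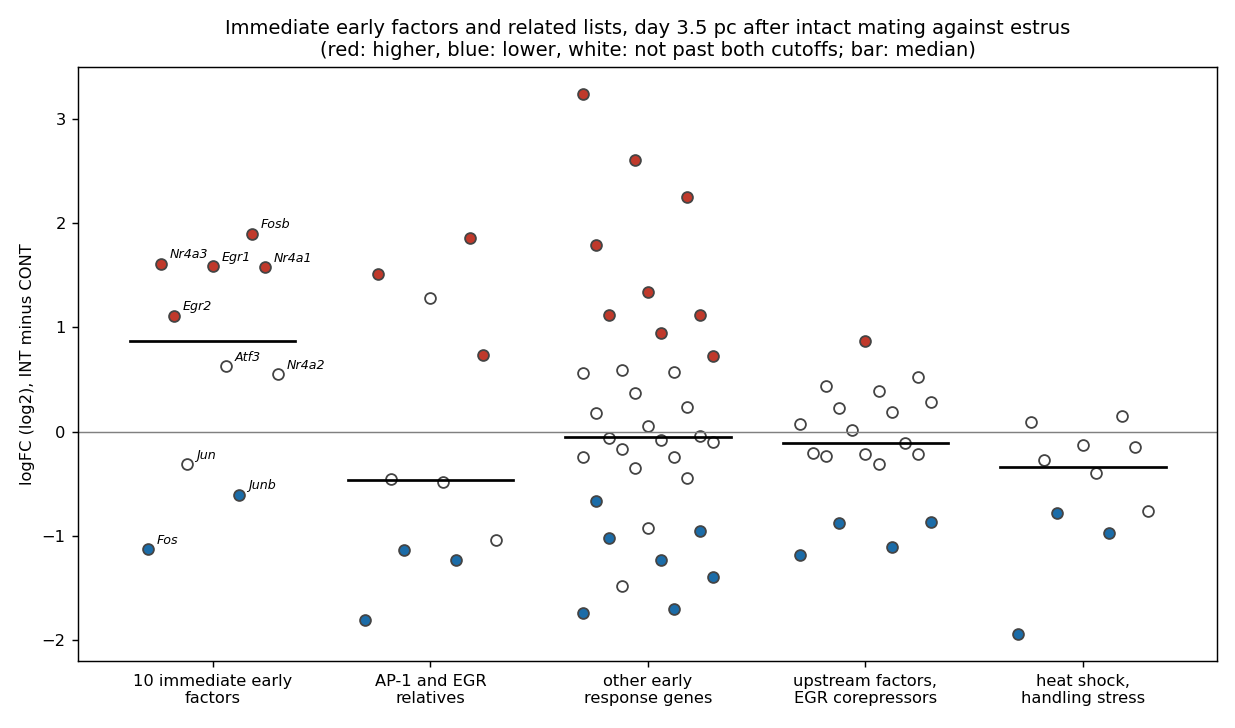
Log2 fold change, INT minus CONT, of the 10 factors and of 4 related gene lists, 1 point per gene, filled where past both cutoffs, with bars at the medians. The medians are 0.87 for the 10 factors, -0.47 for the AP-1 and EGR relatives, -0.05 for the other early response genes, -0.11 for the upstream genes and -0.34 for the stress genes. INT replicate 3 is included, without which the logFCs of Fosb, Egr1, Egr2, Nr4a1 and Nr4a2 were smaller. Fosb, Egr2, Nr4a3 and Atf3 passed the filter on low counts through mated libraries only, so the medians are a description.

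Hormone response and cell type lists in the same comparison give the setting. Of 8 estrogen response genes, 1 was called higher and 3 lower (median logFC -1.87), led by Greb1 (-2.50) and Muc1 (-2.25). The other lower gene was Fosl2, which is also counted among the AP-1 and EGR relatives above. Of 8 progesterone response genes, 5 were called higher and 1 lower (median 3.32). Of 8 markers each, epithelium had 6 lower (median -1.51), stroma 4 higher (1.06), endothelium 8 higher (1.87), smooth muscle 2 higher (0.51) and macrophages 5 higher and 1 lower. Of the markers tested, 6 of 6 were called higher for T and NK cells, 4 of 5 for red blood cells, and for neutrophils 1 of 4 was higher and 1 lower.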

How the data were processed

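Total RNA of scraped endometrium was sequenced by the authors as stranded paired-end libraries, trimmed with AdapterRemoval, aligned to GRCm38/mm10 with STAR and counted per gene with featureCounts, per the methods and the submitters' processing notes. The authors deposited 1 table of raw counts with 49089 genes and 19 libraries, and all columns were mapped to samples through the labels. Of the gene identifiers, 48349 matched a GENCODE symbol. The 10 members, the gene lists and the tests were chosen with earlier results of these data known.

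The deposited counts were fitted with edgeR 4.0.16 in R 4.3.3 (glmQLFit and glmQLFTest, TMM scaling), all 19 libraries in one fit with group as the only term. The 17222 genes that reached 3 CPM in 3 or more libraries, on totals before TMM scaling, were tested. Fosb, Egr2, Nr4a3 and Atf3 reached 3 CPM on that scale in no estrous library and so passed the filter through the mated groups. P-values were adjusted by Benjamini-Hochberg, and calls used the FDR and logFC cutoffs of the study. SE is the logFC divided by the square root of F. CPM used TMM-scaled totals, and log2 CPM a prior count of 2. Correlations used 100000 resamples in two-sided permutation tests. Promoter windows and exon lengths came from RefSeq and GENCODE tables of GRCm38. Scripts were tested on simulated data. All 10 members were named, and of the related lists up to 3 called genes at each end, except that some items are not reported here. Genes most like the members were ranked by Pearson r with the mean log2 CPM of the 10. Alternatives were DESeq2 1.42.0 with its size factors, limma-voom (limma 3.58.1), upper quartile scaling, other filters, a replicate block, fewer groups and leaving out each library, and, chosen after seeing the data, leaving out VAS replicates 2 and 3 together. The sources used here do not say how many animals made up a pool, so p-values measure the spread between these pooled samples.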

Additional observations from a re-analysis of the deposited data

Results flagged for a closer look

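The 40 sets of 4 mated libraries (10 factors in 4 groups, on log2 CPM) were screened for a lone high or low library by Dixon's ratio, the gap to its neighbour over the whole range, at the 95% critical value. Chance alone gives about 1 in 20 such sets, or 2.0 of 40, and 4 were found. Egr2 in INT replicate 3 stood at 10.3 CPM against 2.23 to 2.56 CPM in the others (ratio 0.911). Nr4a1 in the same library stood at 33.4 CPM against 9.02 to 10.8 CPM (ratio 0.864). Nr4a1 in SVX_VAS replicate 2, the library of its group with 2286 CPM of Ltf, was the lowest at 12.0 CPM against 23.7 to 26.4 CPM (ratio 0.863). Nr4a3 in VAS replicate 4 was the highest at 13.2 CPM against 4.37 to 5.27 CPM (ratio 0.831).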

How the results depend on the processing

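Against CONT, no factor changed its direction under any alternative run. Upper quartile scaling moved the median logFC of all genes by 0.13 in INT, 0.17 in SVX, 0.15 in SVX_VAS and 0.20 in VAS, and DESeq2 size factors by at most 0.02. In INT minus CONT, 5 factors were called higher, 2 with limma-voom and 3 to 6 when 1 library was left out (3 without CONT replicate 1), beside 20.9% of all genes, 20.4% with limma-voom and 18.3 to 21.7% with 1 library left out. The 2 lower calls were 1 with upper quartile scaling and 0 to 2 with 1 library left out (0 without CONT replicate 1; 1 without CONT replicate 2, INT replicate 2 or INT replicate 4), beside 12.7% of all genes, 9.77% and 9.93 to 14.8%. In SVX_VAS minus CONT, the 1 lower call was 0 with upper quartile scaling, 2 with limma-voom, a filter at 1 CPM or no cutoff on logFC, and 0 to 2 with 1 library left out, beside 16.5% of all genes, 12.6%, 18.5%, 16.2%, 25.9% and 14.1 to 17.6%. In SVX minus CONT, leaving out 1 library gave 5 to 7 higher and 2 to 3 lower (21 to 23.3% and 16.6 to 19.2% of all genes), and in VAS minus CONT 5 to 6 and 2 to 3 (21.3 to 25% and 13.7 to 22.9%). Against INT, 0 were called, but 1 with DESeq2 in SVX_VAS and 0 to 1 with 1 library left out in VAS, beside 0.0116% and 0 to 3.36% of all genes. The joint test called 0, with DESeq2 1 and with 1 library left out 0 to 1 (0.0813% and 0 to 0.993% of all genes).

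With the replicate number as a block, INT minus CONT had 4 higher (without Egr2: 0.73, FDR = 0.140) and 2 lower, beside 20.2% and 12.3% of all genes, and no other count of calls changed. The numbers did not pair the libraries: 36 same-numbered pairs correlated at -0.69 to 0.58, and 4 of 19 libraries correlated best with their own number.

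Of 1220 values of single factors under the alternatives, 1128 kept direction and side of the threshold, 19 passed it newly, 34 lost it and 39 changed sign, all of the last in uncalled differences from INT, and the cause was not tested. For Nr4a1 in SVX, upper quartile scaling gave 0.014, limma-voom 0.14 and the block 0.13. In VAS, upper quartile scaling gave 0.042 for Fos and 0.0088 for Nr4a1, limma-voom 0.14 for Egr2 and 0.10 for Nr4a1, the block 0.12 for Egr2 and 0.13 for Nr4a1, and leaving out VAS replicates 2 and 3 gave 0.16 for Nr4a1. In SVX_VAS limma-voom gave -0.0018 for Junb. With 1 library left out, the values ranged in SVX from -0.14 to 0.71 for Fosb, -0.058 to 0.82 for Egr1, -0.14 to 0.97 for Egr2 and -0.21 to 0.67 for Nr4a1, in SVX_VAS from -0.14 to 0.40 for Fos, -0.061 to 0.11 for Jun and -0.24 to 0.17 for Junb, and in VAS from -0.28 to 0.20 for Fos, -0.18 to 0.69 for Fosb, -0.41 to 0.44 for Egr1, -0.32 to 0.81 for Egr2 and -0.24 to 0.66 for Nr4a1. Fosb, Egr2, Nr4a3 and Atf3 had under 80 reads in each estrous library, which limits the precision of their fold changes.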

Other observations

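As a description with no test, the 10 factors were compared pair by pair over the 19 libraries on log2 CPM, where the libraries share the difference between estrus and mating. The highest correlation was that of Fosb with Nr4a1 (r = 0.94), followed by Egr1 with Nr4a1 (0.93) and Fosb with Nr4a2 (0.91). Fos correlated with Junb at 0.83 and with Nr4a2 at -0.67. Taken relative to the mean of each library's own group, these were 0.87, 0.84, 0.76, 0.67 and -0.64. Fos and Fosb, which share their DNA-binding partner proteins, stood at -0.51 and, relative to the group means, at -0.27.

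The genes most like the mean of the 10 factors over the 19 libraries were Farp2 (r = 0.88), Shisa4 (0.88), Pomgnt1 (0.88), Ovca2 (0.88), Bdkrb2 (0.86), Fez2 (0.86), Zcchc14 (0.84), Zfp451 (0.83), Klhl11 (0.83) and Trio (0.83). Relative to the group means they included Fndc4 (0.84), Peg12 (0.82), Adamts4 (0.81), Zfp36 (0.80), Ier2 (0.78), Dctd (0.78), Fstl3 (0.78), Ntmt1 (0.78) and Cers5 (0.77). The second set holds Zfp36 and Ier2, both immediate early genes that are not among the 10. Each r was taken over all 17222 tested genes and the highest were kept.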
